A study of Oryzias latipes with 5 samples.

Results

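Most TMED genes encode p24 proteins, cargo receptors of the early secretory pathway, and 10 genes of the deposited table, out of 25689, carry a TMED symbol. They were chosen by symbol alone, as tmed followed by a number and, where present, a or b for a fish gene copy: tmed1a, tmed1b, tmed2, tmed3, tmed4, tmed6, tmed7, tmed8, tmed9 and tmed10. For tmed8 the deposited table gives no p24 name, so it is a member by symbol only. Messenger RNA was sequenced from cells of medaka (Oryzias latipes, Cab strain) at 10 days post fertilization, raised at 30 °C. There were 2 libraries from heterozygous mutants (col10a1wt/mut) and 3 from wild-type siblings (col10a1wt/wt), and the fish of both groups were homozygous for the reporter col10a1:nlGFP, which is driven by the col10a1 promoter and marks the cells. The series describes the libraries as biological replicates, the labels name the cells as chondrocytes and osteoblast progenitors, and the mutants still carry 1 wild-type allele of col10a1, the gene of type X collagen.

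Proteins of the p24 family span the membrane once, with a lumenal GOLD domain and a coiled coil, and a short cytosolic tail that binds the COPI and COPII vesicle coats. In yeast and mammals they cycle between the endoplasmic reticulum (ER) and the Golgi as mixed complexes of the alpha, beta, gamma and delta subfamilies, and select cargo such as GPI-anchored proteins. Cells that secrete collagen and other matrix send much protein along this route.

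The libraries held 25580595 and 27916294 reads in mutants 1 and 2 and 24791662 to 28012092 in the wild-type libraries, as recovered from FPKM (fragments per kilobase of gene length at a common depth, as scaled by the authors). Mutant 2 was sparse, with no read on 13355 genes, against 4555 in mutant 1 and 4997 to 6292 in the wild-type libraries. Pearson's r of log2(FPKM + 1) over the tested genes was 0.80 to 0.82 for pairs with mutant 2 and 0.95 to 0.97 for the other pairs, across genes, which are not independent replicates. Results are therefore also given without mutant 2, which leaves mutant 1 as the only mutant.

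Of the markers of the labelled cells, 4 of the 6 listed for hypertrophic cells and osteoblast progenitors were matched, and their summed level (col10a1a, sparc, spp1 and sp7) was 9386 and 8710 FPKM in the mutants and 13280 to 15237 FPKM in the wild-type libraries. col10a1a and sparc lay lower in the mutants (log2 differences -0.65 and -0.86), while spp1 and sp7 overlapped (0.09 and -0.07). Of 5 chondrocyte markers 3 were matched, 1 of them to a pair of genes, and summed to 58.4 and 52.4 FPKM in the mutants and 142 to 201 FPKM in the wild-type libraries. Genes of other secretory tissues were present too. The 4 liver genes matched of 6 (apoa1b, apoa2, tfa and fgb) summed to 70320 and 26351 FPKM in the mutants, against 43827 to 52654 FPKM in the wild-type libraries. The 5 genes matched of 8 for exocrine pancreas and gut, of which fabp1b.1 was at 0 in every library, summed to 774 and 13.3 FPKM in the mutants and to 256 to 355 FPKM in the wild-type libraries. Epidermal markers (4 of 4 matched, cldni at 0 in every library) summed to 885 and 335 FPKM in the mutants and 373 to 1186 FPKM in the wild-type libraries. Neuronal ones (4 of 4) summed to 36.1 and 12.3 FPKM against 25.3 to 42.6 FPKM. Leukocyte ones (4 of 4, mpx to a pair of genes) summed to 16.4 and 6.75 FPKM against 21.7 to 29.0 FPKM, with both mutants below every wild-type library. The mutants exceeded all wild-type libraries for ins, the only matched gene of 3 for endocrine pancreas, at 9.80 and 10.3 FPKM against 0.315 to 0.369 FPKM, and for the sum of the 2 matched red blood cell genes of 4, at 6.30 and 6.54 FPKM against 3.39 to 5.96 FPKM, which was mostly hbba1, while alas2 overlapped. The part of these cells in the TMED levels was not tested, and 0 of 5 muscle markers were matched.

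The 3 most abundant TMED transcripts, tmed9, tmed10 and tmed7, and the less abundant tmed3 stood higher in both mutants than in the wild-type libraries, with no member past the test. All members together summed to 1485 and 2170 FPKM in mutants 1 and 2 and to 1070, 985 and 1200 FPKM in wild-type libraries 1 to 3, 1827 ± 484 (SD, n = 2) against 1085 ± 108 (SD, n = 3), or 1.68 times the wild-type mean. The sums did not overlap between the genotypes, and mutant 2 was the highest library. In bulk RNA a change in the number of cells of a type and a change in RNA per cell cannot be told apart. The liver sum and the exocrine pancreas and gut sum were highest in mutant 1 and lowest in mutant 2, and ins was higher in both mutants than in the wild-type libraries.

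**Figure D1:**
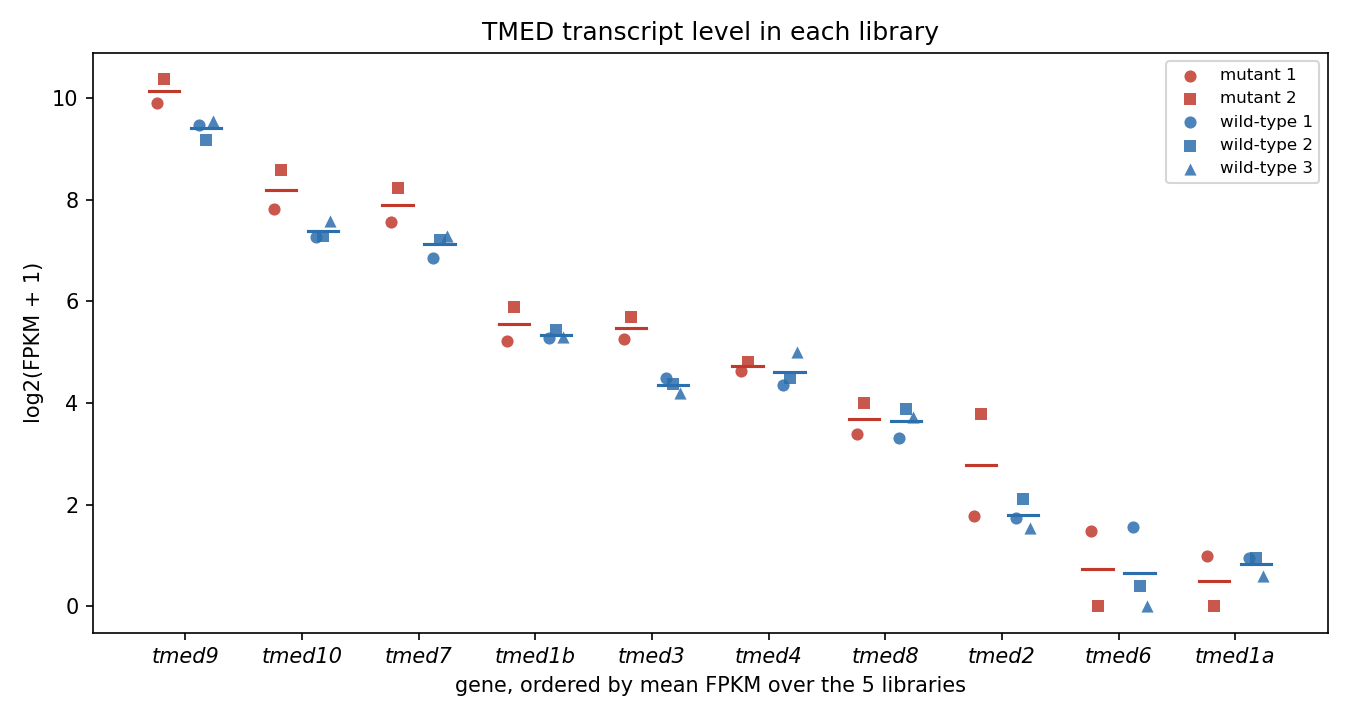
Level of the 10 TMED genes in each library as log2(FPKM + 1), with the mutant libraries in red left of the wild-type libraries in blue, and a line at the mean of each group (2 mutant and 3 wild-type libraries). For tmed9, tmed10, tmed7 and tmed3 both mutant points lie above all wild-type points, and for the other members they overlap.

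The test was limma on log2(FPKM + 1) over the 13680 genes that reached 1 FPKM in 2 libraries or more, with Benjamini-Hochberg adjustment over all of them and a threshold of 0.05. Of the 10 members 9 entered it, since tmed1a never reached 1 FPKM, and 0 passed (adjusted p 0.399 to 0.945), where 0.00731% of all tested genes did, 1 gene in all. By other methods the count of members was also 0, except without mutant 1 (5). At an unadjusted p under 0.05 there were 4 members, tmed3, tmed9, tmed10 and tmed7, all higher, against 3.21% of all tested genes that were higher at this level. This count rested on the settings of the fit and on single libraries. It was 1, tmed3, with no mean-variance trend and with array weights, where 308 and 118 of the 13680 genes were higher. It was 2 without wild-type 1 (tmed3 and tmed9, where 357 of 13207 genes were higher). Without wild-type 2 it was also 2 (tmed3 and tmed7, where 218 of 13077 genes were higher). Without mutant 2 the log2 differences of tmed9, tmed10, tmed7 and tmed3 were 0.50, 0.44, 0.45 and 0.90. tmed3, tmed9, tmed10 and tmed7 lay above every wild-type library in both mutants, which 8.33% of tested genes did, and 0 members lay below every one, which 26% of tested genes did. The log2 difference was above 0 for all 9 tested members, and for 8 with voom on the recovered reads, where tmed6 lay lower, against 34.1% of tested genes, with a median of 0.73 over the members and -0.31 over all tested genes. Without mutant 2 it was above 0 for 6 of 9, with medians of 0.44 and -0.16. The level of all tested genes depended on the filter and the scaling. With at least 5 FPKM in 2 libraries or more, 7 members remained, all 7 higher, with medians of 0.73 and -0.18. After quantile normalization the medians were 0.66 and 0.01. The part of the sparse mutant 2 in this contrast was not tested.

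The alpha subfamily was the most abundant and was nearly all tmed9, whose product is p24alpha2 (ENSORLG00000011600, chromosome 10, 30556204 to 30557777, plus strand, 657 bp). It stood at 958 and 1324 FPKM in the mutants and at 709, 581 and 752 FPKM in the wild-type libraries. These levels did not overlap, and in mutant 2 the gene ranked 43 of 25689 by FPKM. The means were 1141 ± 259 (SD, n = 2) against 681 ± 89.1 FPKM (SD, n = 3), a difference of 0.73 on the log2(FPKM + 1) scale (SE 0.25, 95% interval 0.15 to 1.32, limma adjusted p = 0.399). The gene lies within TMEM216, on the other strand, over its whole span of 1574 bp. Only gene spans were compared, not exons, and no strand setting is known for the counting. Whether reads of this pair were mixed is therefore not known. TMEM216, a ciliary transition zone gene, stood at 38.5 and 62.3 FPKM in the mutants and at 21.3, 22.5 and 24.2 FPKM in the wild-type libraries (log2 difference 1.08, limma adjusted p = 0.399).

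The other alpha member, tmed4 (p24alpha3, ENSORLG00000002130, chromosome 7, 4855309 to 4859037, plus strand, 1498 bp), showed no such separation. It stood at 23.8 and 27.0 FPKM in the mutants and at 19.4, 21.5 and 31.0 FPKM in the wild-type libraries, with both mutants inside the wild-type range. The log2 difference was 0.11 with a 95% interval of -0.59 to 0.80, which a change of the size seen for tmed9 would fit within. A gene outside the symbol rule, si:ch211-255i20.3, is described in the deposited table as the third alpha protein, TMED11, and was at 1.73 and 3.12 FPKM in the mutants against 1.44, 0.679 and 1.09 FPKM in the wild-type libraries (log2 difference 0.72, adjusted p = 0.419).

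The delta subfamily has tmed10 alone (p24delta1, also called Tmp21, ENSORLG00000017499, chromosome 24, 17139757 to 17150242, minus strand, 2063 bp), the second most abundant member. Its levels were 225 and 382 FPKM in the mutants and 153, 155 and 190 FPKM in the wild-type libraries, without overlap. The means were 304 ± 110 FPKM (SD, n = 2) against 166 ± 20.9 FPKM (SD, n = 3), a log2 difference of 0.82 (SE 0.28, 95% interval 0.18 to 1.47, limma adjusted p = 0.399). Against the wild-type mean, mutant 1 differed by 0.44 and mutant 2 by 1.20 on the log2 scale, so the mutants lay further from each other than mutant 1 lay from the wild-type mean. No other gene of the table overlaps tmed10.

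The beta subfamily, tmed2 (p24beta1, ENSORLG00000025915, chromosome 12, 1427303 to 1438358, plus strand, 5315 bp), was listed at low levels, although its product is the usual partner of TMED10 in mammals. It stood at 2.42 and 12.9 FPKM in the mutants, from 323 and 2353 reads, and at 2.33, 3.29 and 1.93 FPKM in the wild-type libraries, from 321, 512 and 310 reads. Mutant 1 lay within the wild-type range, and only mutant 2 stood apart, at 5.31 times the level of mutant 1. The log2 difference of 0.99 had a 95% interval of -0.51 to 2.49 (adjusted p = 0.428), and without mutant 2 it was -0.02.

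Among the gamma members, tmed7 and tmed3 stood higher in both mutants, and tmed3 had the smallest p of the family. tmed3 (p24gamma4, ENSORLG00000025884, chromosome 3, 26814845 to 26819725, plus strand, 3213 bp) was at 37.3 and 50.9 FPKM in the mutants and at 21.5, 19.7 and 17.4 FPKM in the wild-type libraries. The lowest mutant value was thus above the highest wild-type value by more than the whole wild-type range. The means were 44.1 ± 9.63 (SD, n = 2) against 19.5 ± 2.08 FPKM (SD, n = 3), 2.26 times as high, and the log2 difference was 1.12 (SE 0.27, 95% interval 0.49 to 1.75). It ranked 53 of 13680 genes by p and did not pass after adjustment (limma adjusted p = 0.399). Without mutant 2 the difference was 0.90 (adjusted p = 0.567).

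tmed7 (p24gamma3, ENSORLG00000004971, chromosome 9, 10556145 to 10561378, minus strand, 661 bp) was at 189 and 300 FPKM in the mutants and at 116, 147 and 156 FPKM in the wild-type libraries. The groups did not overlap, and the log2 difference was 0.78 (SE 0.27, 95% interval 0.15 to 1.41, adjusted p = 0.399). A gene described as MEX3C overlaps 1552 of its 5234 bp on the other strand and stood at or under 1.77 FPKM in every library.

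tmed1b (p24gamma1, ENSORLG00000014955, chromosome 1, 35774944 to 35781505, minus strand, 3300 bp) stood at 36.2 and 58.7 FPKM in the mutants and at 38.0, 42.1 and 38.2 FPKM in the wild-type libraries. Mutant 1 was the lowest of the 5 libraries and mutant 2 the highest, and the log2 difference was 0.22 (95% interval -0.42 to 0.87, adjusted p = 0.659). Its copy tmed1a (ENSORLG00000025581, chromosome 8, 9372114 to 9377947, plus strand, 4947 bp) was scarce, at 0.991 and 0 FPKM in the mutants and at 0.921, 0.925 and 0.507 FPKM in the wild-type libraries. The 0 in mutant 2 allows up to 0.0176 FPKM (3 reads, counting error only), and how reads shared by the 2 copies were counted is not known. It lies over its whole span inside dnm2a, a dynamin gene on the other strand.

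tmed6 (p24gamma5, ENSORLG00000013386, chromosome 12, 25367889 to 25374888, minus strand, 732 bp) was at 1.80 and 0 FPKM in the mutants and at 1.95, 0.327 and 0 FPKM in the wild-type libraries, from 33, 0, 37, 7 and 0 reads. Mutant 1 and wild-type 1 were the only libraries above 1 FPKM, and it entered the test through them (log2 difference 0.09, adjusted p = 0.945). The 0 values allow up to 0.119 FPKM in mutant 2 and 0.135 FPKM in wild-type 3. tmed8 (ENSORLG00000016326, chromosome 22, 13104374 to 13109526, minus strand, 2880 bp), which the table describes as protein TMED8 with no p24 name, stood at 9.44 and 15.0 FPKM in the mutants and at 8.90, 13.7 and 12.3 FPKM in the wild-type libraries, which overlapped (log2 difference 0.05, 95% interval -0.78 to 0.89). On the other strand gstz1, at 56.4 to 118 FPKM, overlaps 431 of the 5153 bp of tmed8. A gene described as a mixed lineage kinase domain-like protein spans the whole of tmed6. Whether reads of these pairs were mixed is not known either.

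**Figure D2:**
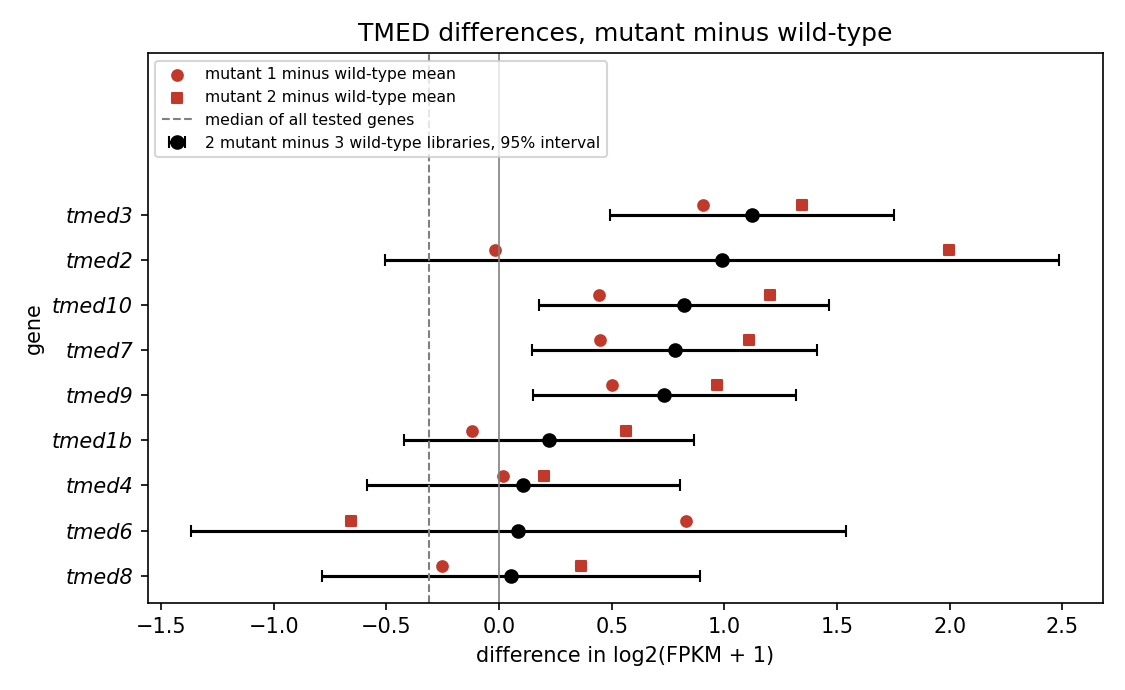
Difference in log2(FPKM + 1), mutant minus wild-type, for the 9 tested TMED genes, with the limma estimate and its 95% interval in black and each mutant library against the wild-type mean in red. The dashed line marks the median of all tested genes at -0.31. The intervals of tmed3, tmed10, tmed7 and tmed9 lie above 0 before adjustment, and mutant 2 lies right of mutant 1 for every gene but tmed6. With no mean-variance trend or with array weights (not shown) the intervals of tmed10, tmed7 and tmed9 include 0. Without wild-type 1 those of tmed10 and tmed7 do, and without wild-type 2 those of tmed9 and tmed10.

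The mutant libraries differed from each other, and 4 of the 9 tested members (tmed1b, tmed8, tmed2 and tmed6) lay on opposite sides of the wild-type mean in them. Relative to the wild-type mean, the 9 tested members had a median of 0.44 in mutant 1 and 0.97 in mutant 2, while in wild-type libraries 1 to 3 it was -0.06, 0.01 and 0.09. The matching median of all tested genes was -0.16 and -0.49 in mutants 1 and 2, so the members and all genes lay further apart in mutant 2. The level was higher in mutant 2 than in mutant 1 for 8 of the 10 members. The exceptions were tmed6 and tmed1a, both without a read in mutant 2. The sparse state of that library moves with these values, and its part in them was not tested.

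The order of the levels per length was nearly the same in all libraries. tmed9 took 64.5% and 61.0% of the summed TMED FPKM in mutants 1 and 2 and 66.2%, 59.0% and 62.7% in wild-type libraries 1 to 3, and the shares overlapped. tmed9, tmed10 and tmed7 together took 89.7% to 92.5% in every library, with tmed10 above tmed7 throughout. tmed9 stood at 4.25 and 3.47 times tmed10 in the mutants and at 4.63, 3.74 and 3.95 times in the wild-type libraries, again with overlap. tmed7 and tmed10 lay close together, with a ratio of 0.840 and 0.785 in the mutants and of 0.755, 0.949 and 0.817 in the wild-type libraries.

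The middle of the order did change place, also within the wild-type group. There tmed4 lay above tmed3 in wild-type 2 and wild-type 3 and below it in wild-type 1. The ratio of tmed3 to tmed1b was 1.03 and 0.867 in the mutants and 0.566, 0.466 and 0.456 in the wild-type libraries. Both mutant ratios thus lay above all 3 wild-type ratios, and tmed3 reached the level of tmed1b in mutant 1 alone. The ratio of tmed3 to tmed7 overlapped, at 0.197 and 0.170 in the mutants and 0.186, 0.133 and 0.112 in the wild-type libraries. The ratio of the alpha members tmed9 and tmed4 was 40.3 and 49.0 in the mutants and 36.6, 27.1 and 24.3 in the wild-type libraries. Ratios within a library do not depend on how the library was scaled, and these show unequal levels between members, not which of the members moved.

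**Figure D3:**
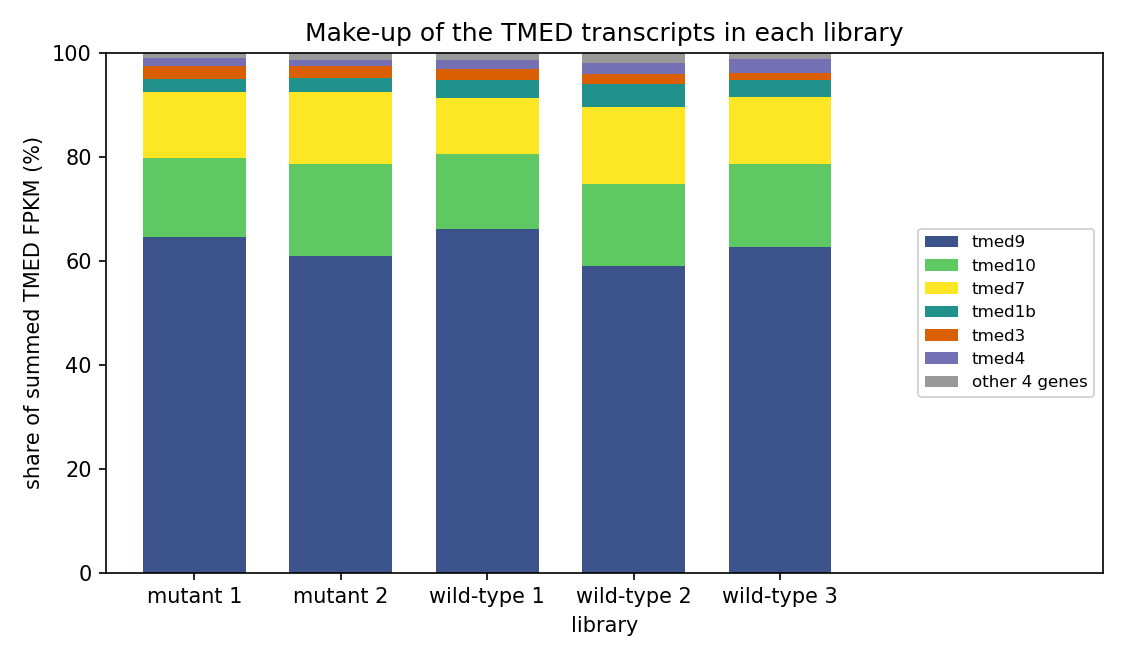
Share of each TMED gene in the summed TMED FPKM of each library, in percent, with the 2 mutant libraries left of the 3 wild-type libraries. tmed9 holds 59.0% to 66.2% in every library, and the shares of tmed3 are 2.51% and 2.35% in the mutants against 2.01%, 1.995% and 1.45% in the wild-type libraries.

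The genes whose pattern over the 5 libraries was nearest to tmed9 and tmed10 were taken from the tested genes with a symbol by the root-mean-square distance of log2(FPKM + 1) after subtracting the wild-type mean. Nearest to tmed9 were sf3b5, a splicing factor subunit (distance 0.073), eloca, described as elongin C (0.080), zgc:56095, described as a ferritin heavy subunit (0.083), the signal peptidase subunit spcs2 (0.083) and the tetraspanin cd63 (0.084). The nearest, sf3b5, stood at 269 and 419 FPKM in the mutants and at 228, 176 and 223 FPKM in the wild-type libraries. spcs2, which acts where proteins enter the ER, stood at 332 and 434 FPKM in the mutants and at 213, 202 and 239 FPKM in the wild-type libraries. Nearest to tmed10 were zgc:136864 (0.053), poglut2, described as KDEL motif-containing protein 1 (0.075), the signal recognition particle gene srp14 (0.089), OGDH (0.092) and AK6 (0.093). zgc:136864 stood at 12.3 and 20.6 FPKM in the mutants and at 7.43, 8.10 and 10.7 FPKM in the wild-type libraries. srp14 stood at 107 and 186 FPKM in the mutants and at 79.0, 84.1 and 99.2 FPKM in the wild-type libraries. OGDH was scarce, at 1.18 and 2.49 FPKM in the mutants and at 0.564, 0.677 and 0.879 FPKM in the wild-type libraries. At such levels log2(FPKM + 1) shrinks differences, so its place in this list depends on that scale. Within the family and out of 10335 other genes, tmed7 was at place 10 in likeness to tmed10 and tmed9 at place 34. Their distances were 0.113 and 0.147. From tmed10, tmed3 lay at 0.294, tmed1b, tmed2, tmed4 and tmed8 at 0.405 to 0.521, and tmed6 at 1.04. In likeness to tmed9, tmed10 was at place 64 and tmed7 at place 244, with distances of 0.147 and 0.212. From tmed9, tmed3 lay at 0.302 and the other tested members at 0.374 to 0.906.

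Of 60 tested genes in 7 lists of the same transport route, 0 passed the test (lowest adjusted p = 0.399), with 8 higher and 4 lower at an unadjusted p under 0.05, where 3.21% of all tested genes were higher and 7.6% lower. Genes of the COPI coat, which binds p24 tails and carries vesicles back to the ER, lay higher in the mutants in all 8 tested cases. Of all tested genes 34.1% were higher. The median log2 difference of the COPI genes was 0.60 against -0.31 over all tested genes. It was 0.59 against 0.01 with quantile normalization, and 0.60 against -0.18 with at least 5 FPKM in 2 libraries or more. In 7 of the 8 both mutants lay above every wild-type library, against 8.33% of all tested genes. The most abundant were copz1, with 115 and 164 FPKM in the mutants against 95.8, 84.3 and 101 FPKM in the wild-type libraries, cope, with 114 and 156 FPKM against 97.1, 77.3 and 79.7 FPKM, and arcn1b, with 89.6 and 94.9 FPKM against 57.9, 78.4 and 65.5 FPKM. Their log2 differences were 0.55, 0.65 and 0.46, and the median over the 8 genes was 0.42 in mutant 1 and 0.81 in mutant 2.

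The COPII coat carries cargo out of the ER. Of 12 tested genes 4 were higher and 8 lower, and 6 each way with quantile normalization. The median was -0.26, or 0.09 with that scaling, near that of all tested genes (-0.31 and 0.01). Both mutants lay above the whole wild-type range in 0 genes and below it in 1, sec24b, where 8.33% and 26% of all tested genes did. In the sparse mutant 2, sec24b and SEC24C had 1 read each, sec31a had 15 and 1 other tested gene of this list had none. With at least 5 FPKM in 2 libraries or more, 6 genes remained, 3 higher and 3 lower, with a median of -0.11 against -0.18 over all genes. The part of the sparse library in this list was not tested. The GTPase gene sar1b stood at 150 and 183 FPKM in the mutants and at 141, 150 and 184 FPKM in the wild-type libraries (log2 difference 0.07). sec13, of the outer coat, was at 81.6 and 154 FPKM in the mutants and at 69.4, 79.6 and 94.7 FPKM in the wild-type libraries (0.47), and sec23a, of the inner coat, at 45.0 and 55.9 FPKM against 44.2, 75.7 and 76.3 FPKM (-0.33).

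Genes of other cargo receptors and ER export proteins were mostly higher in the mutants. Of 11 tested genes, among them the SNARE gene sec22bb, 9 were higher and 2 lower, where 34.1% of all tested genes were higher. Their median was 0.18 against -0.31 over all tested genes, or 0.17 against 0.01 with quantile normalization. Both mutants lay above every wild-type library in 4 genes and below every one in 1, where 8.33% and 26% of all tested genes did. lman1, the lectin receptor ERGIC-53, stood at 101 and 192 FPKM in the mutants and at 52.2, 65.1 and 66.5 FPKM in the wild-type libraries (log2 difference 1.18, SE 0.31, limma adjusted p = 0.399). surf4 was at 128 and 147 FPKM in the mutants against 97.9, 123 and 127 FPKM in the wild-type libraries (0.25), and cnih4, a cornichon export receptor, at 58.7 and 27.1 FPKM against 68.9, 75.2 and 74.5 FPKM (-0.85). KDELR2, which returns ER proteins from the Golgi, was the only tested gene of its list, since kdelr3 was at 0 in every library. It stood at 152 and 361 FPKM in the mutants and at 88.3, 118 and 111 FPKM in the wild-type libraries (log2 difference 1.16, adjusted p = 0.399, and 0.54 without mutant 2).

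In yeast and mammals p24 complexes export GPI-anchored proteins. Genes of the enzymes that attach and remodel the GPI anchor had a median of -0.21 over 9 tested genes. Over all tested genes it was -0.31. Of the 9, 4 were higher and 5 lower, where 34.1% of all tested genes were higher. Both mutants lay above every wild-type library in 1 gene and below every one in 3, where 8.33% and 26% of all tested genes did. After quantile normalization the median was 0.0042 against 0.01, with 5 higher. pgap2 was nearly level, at 49.97 and 54.6 FPKM in the mutants and at 51.1, 52.5 and 51.3 FPKM in the wild-type libraries. pgap3 was at 22.4 and 17.4 FPKM in the mutants against 23.98, 20.6 and 15.1 FPKM in the wild-type libraries, and pigt at 8.07 and 0.176 FPKM against 9.68, 9.38 and 8.85 FPKM. Of this list 2 tested genes had no read in mutant 2.

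Golgi matrix genes and Arf GAPs split evenly, with 4 of 8 higher, where 34.1% of all tested genes were. Their median was 0.01 against -0.31 over all tested genes. After quantile normalization 7 were higher, with a median of 0.36 against 0.01. arfgap2, a GAP that acts with COPI, stood at 63.1 and 38.5 FPKM in the mutants and at 71.1, 81.9 and 83.8 FPKM in the wild-type libraries (-0.66), below every one, while arfgap3 (0.34) and blzf1 (-0.08) overlapped. SNARE genes of ER-Golgi fusion had a median of 0.50 over 11 tested genes, against -0.31 over all tested genes. Of the 11, 7 were higher, where 34.1% of all tested genes were. Without mutant 2 the median was 0.27 against -0.16, with 8 higher. Both mutants lay above every wild-type library in 4 genes and below every one in 0, where 8.33% and 26% of all tested genes did. BET1L, a Golgi SNARE, stood at 33.4 and 80.9 FPKM in the mutants and at 14.6, 23.0 and 21.5 FPKM in the wild-type libraries (1.39, adjusted p = 0.399). ykt6 differed by 0.52, at 33.8 and 46.5 FPKM in the mutants against 25.1, 30.3 and 27.0 FPKM in the wild-type libraries. stx5a differed by 0.56 (limma adjusted p = 0.448), at 24.8 and 56.1 FPKM against 21.0, 24.3 and 30.9 FPKM. Its lower mutant value lay within the wild-type range, and without mutant 2 its difference was -0.016.

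**Figure D4:**
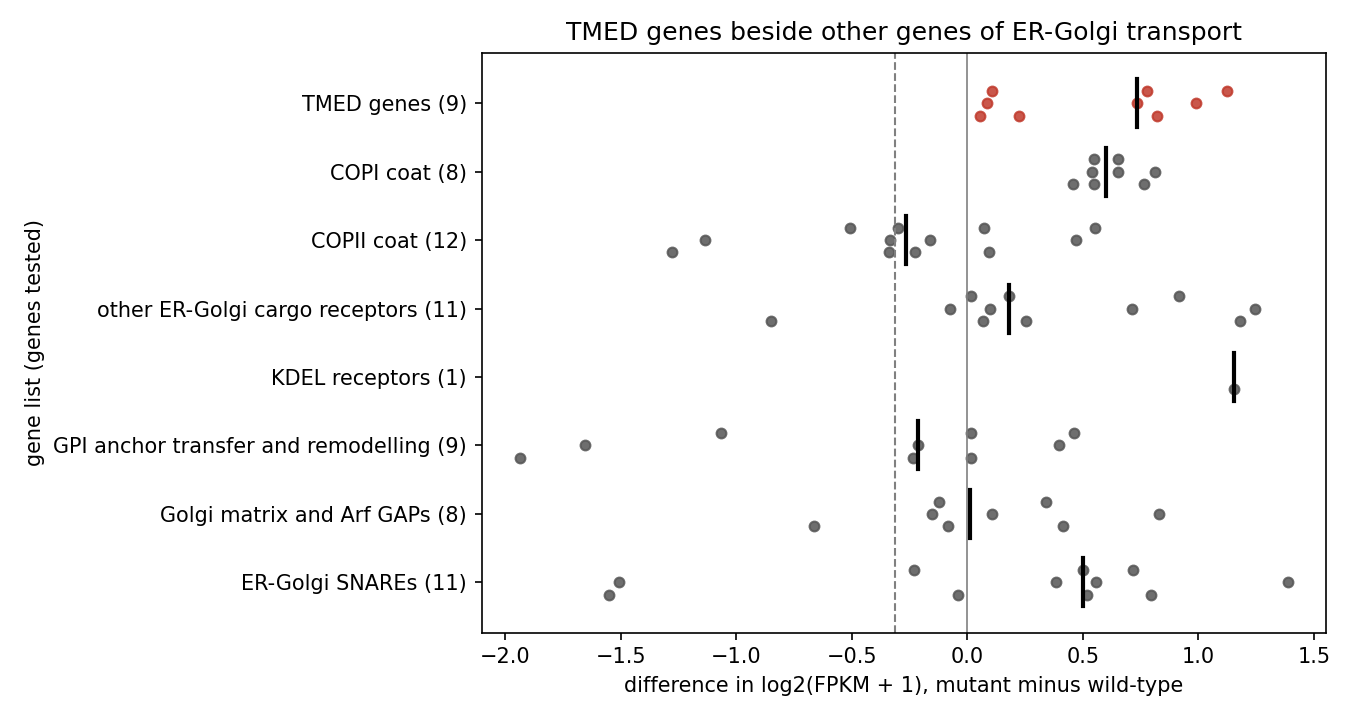
Difference in log2(FPKM + 1), mutant minus wild-type, of each tested gene (points) and the median (bar) of the TMED genes and of 7 lists of ER-Golgi transport. The dashed line marks the median of all tested genes at -0.31. The TMED genes have a median of 0.73 and the COPI genes of 0.60, with all points right of 0, while the COPII genes have a median of -0.26, which turns to 0.09 with quantile normalization.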

How the data were processed

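The deposited table gives FPKM per gene for each library, made by the authors, with gene length, coordinates, symbol and description. The aligner HISAT2 2.0.5 and the counter featureCounts 1.5.0-p3 are named, per the submitters' processing notes. Sources used here do not state the build, the annotation or the strandedness of counting, and coordinates are those of the table. Libraries were prepared from total RNA with a SMARTER mRNA-Seq kit, per the labels' protocols. Read numbers were recovered from FPKM times gene length, whole within 0.02 reads for 100% of values above 0. The depth implied by FPKM was 0.980 and 1.23 times the read sums in mutants 1 and 2 and 1.04 to 1.08 times in the wild-type libraries, a scaling whose basis is not given.

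Groups follow the sample titles. With limma 3.58.1 (R 4.3.3), log2(FPKM + 1) was tested for the 13680 genes that reached 1 FPKM in 2 libraries or more (mean-variance trend, no covariate, two-sided, Benjamini-Hochberg). Fold changes on this scale understate those of low genes. The procedure was tested on simulated data drawn from wild-type means, with no sparse library. That run cannot show how the test behaves with a library like mutant 2. The members, lists and tests were chosen with earlier results of these data known. Named genes are all members, the described TMED11 gene, the 3 most abundant genes of each list and the 5 nearest to tmed9 and tmed10. Genes that overlap a member in position, sec22bb, sec24b, SEC24C and sec31a were named after their values were seen. Marker lists for 8 other cell types were summed. No sequence is printed, and the reference table matched 0 gene identifiers. Python 3.11.15, numpy 2.4.6, pandas 2.3.3 and matplotlib 3.10.9 were used.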

Additional observations from a re-analysis of the deposited data

How the results depend on the processing

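The count of TMED genes past the threshold stayed at 0 under every alternative run but 1, and the count of all genes stayed at 1 but for 3. Leaving out each library in turn gave 0 to 5 TMED genes, 1 to 7239 genes in all and a median log2 difference of the TMED genes of 0.44 to 1.04. The top of each range came without mutant 1, which leaves the sparse mutant 2 as the only mutant and assumes that it varies like the wild-type libraries. There tmed9 (0.97), tmed10 (1.20), tmed7 (1.11), tmed3 (1.34) and tmed2 (1.998) passed, while 5270 of the 7239 genes were lower. Without mutant 2 the median was 0.44, with 2 genes in all. The median was 0.48 with no filter on low values, which adds tmed1a, 0.84 with median-of-ratios scaling, 0.87 with voom on the recovered reads, 0.81 with the replicate block, and 0.66 with quantile normalization, where the median of all genes was 0.01. A rescaling to recovered read sums, chosen after seeing the data, gave 0.79. tmed9, tmed10, tmed7 and tmed3 were above 0 under all 15 alternatives, with limma adjusted p of up to 0.784. For these genes both mutants lay above every wild-type library. Runs without 1 library, or with another filter, pseudocount, trend, weight or block, could therefore not turn their sign. Only the runs that rescale the libraries could have done so.

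Differences of 5 members turned negative under some alternatives, and the cause was not tested. tmed6 was at -0.028 with a pseudocount of 0.1, -0.25 with voom and -0.04 without wild-type 2. It was at -0.24 with the replicate block and without wild-type 3, which give the same contrast. Its highest value was 0.83, without mutant 2. Without mutant 2, tmed1b was at -0.12, tmed8 at -0.25 and tmed2 at -0.020, and without wild-type 1 tmed4 was at -0.024 and tmed8 at -0.11. Leaving out 1 library gave at most 0.56 for tmed1b, 0.36 for tmed8 and 0.30 for tmed4.

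The replicate number as a block gave 145 genes in all and 0 TMED genes. Deviations from the group means correlated at 0.06 for number 1 and -0.01 for number 2. With 2 mutants, the deviations of mutant 1 are those of mutant 2 with the sign turned, so these are not separate checks. They also carry the sparse state of mutant 2, and cannot decide whether the number pairs the libraries. Depth limits tmed6 and tmed1a, with at most 37 and 134 reads.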
